A study of Mus musculus with 10 samples.

Results

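The genes examined were Hoxa9, Hoxa10, Hoxa11 and Hoxa13, the posterior genes of the Hoxa cluster, and Evx1, the homeobox gene beyond its Hoxa13 end. These are 5 of 22367 protein-coding genes of the mouse annotation (GENCODE vM1 on mm9, chromosomes 1 to 19, X and Y). The genes were chosen by name, and a site was assigned to a gene when it shared at least 1 bp with the gene body, from the lowest to the highest annotated transcript end, or with the 5 kb on either side. This gave 19 of 8876 Suz12 sites, 12 of 5722 Suz12-depleted sites, 9 of 5242 Pcl3 sites and 2 of 678 H3K27me3-depleted sites.

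ChIP-seq, which sequences the DNA pulled down with an antibody, had been performed in mouse embryonic stem cells (ESCs). H3K27me3 (Upstate antibody 07-449) and Suz12-TAP (FlagM2 antibody) were assayed in the BayGenomics gene trap line XG122 of genotype Suz12 Suz12TAP/+, in which the endogenous Suz12 allele carries a 6xHis-3xFlag TAP tag, with 1 library from cells expressing scramble shRNA and 1 from cells expressing Pcl3 shRNA. Every cell of this comparison, control cells included, therefore carried 1 tagged Suz12 allele, and shRNA-expressing cells were selected and picked as clones after lentiviral infection. Pcl3-TAP was assayed with FlagM2 in E14 ESCs carrying Pcl3-TAP together with an shRNA against wildtype Pcl3, with 1 library for shRNA7 and 1 for shRNA6 but 1 site list between them. With 4 input DNA libraries this makes 10 libraries, and the input of the XG122 cells with Pcl3 shRNA is labelled shRNA6 while its ChIP libraries give no number.

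The 4 lists give the position and a p-value of each site but no reads, so the depth behind each site is unknown and no fold change can be given. No condition has a replicate in these lists, so every value is a description of these libraries and no difference was tested. The lists measure no RNA, and neither the ESC identity of the cells nor the knockdown of Pcl3 could be checked from them. A site list also cannot tell binding in fewer cells from less binding in each cell.

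Hox genes encode homeodomain transcription factors that give cells their position along the body axis. They lie in clusters in which the order of the genes follows the order of their expression domains, so that Hoxa9 to Hoxa13 act furthest towards the tail and the tips of the limbs. Polycomb repressive complex 2 (PRC2), whose core holds Suz12, Eed and the methyltransferase Ezh2, places trimethylation on lysine 27 of histone H3 (H3K27me3), a mark of repressed developmental genes, and in ESCs the Hox clusters are among its best known targets. Pcl3, also called Phf19, is a Polycomb-like partner of PRC2 with a Tudor domain. PRC2 in mammals gathers at CpG islands, which is why the CpG content of the sites is given here.

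Suz12, the Suz12 loss and Pcl3 extended over upstream stretches of very different CpG content. The lines below show for each gene the nearest 200 bp upstream of its start that hold no exon of any gene (mm9, 5′ to 3′ on the strand of the gene, CpG in capitals).
Hoxa9 (chr6:52177370-52177569, minus strand): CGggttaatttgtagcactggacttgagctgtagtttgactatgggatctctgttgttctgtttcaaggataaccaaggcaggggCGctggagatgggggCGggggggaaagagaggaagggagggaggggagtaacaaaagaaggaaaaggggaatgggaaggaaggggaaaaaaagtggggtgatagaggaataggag
Hoxa10 (chr6:52184939-52185138, minus strand): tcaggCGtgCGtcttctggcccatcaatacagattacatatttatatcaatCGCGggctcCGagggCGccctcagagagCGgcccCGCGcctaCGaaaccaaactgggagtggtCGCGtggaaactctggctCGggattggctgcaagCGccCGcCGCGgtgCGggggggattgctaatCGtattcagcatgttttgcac
Hoxa11 (chr6:52196808-52197007, minus strand): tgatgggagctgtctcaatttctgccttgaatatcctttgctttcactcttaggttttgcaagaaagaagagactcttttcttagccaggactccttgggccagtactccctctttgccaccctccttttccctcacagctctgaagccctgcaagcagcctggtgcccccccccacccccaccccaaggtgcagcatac
Hoxa13 (chr6:52210875-52211074, minus strand): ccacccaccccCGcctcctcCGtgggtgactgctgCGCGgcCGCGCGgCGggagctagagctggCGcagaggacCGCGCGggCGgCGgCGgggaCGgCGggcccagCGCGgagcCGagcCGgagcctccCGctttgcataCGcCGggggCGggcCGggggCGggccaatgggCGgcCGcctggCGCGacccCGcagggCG
Evx1 (chr6:52263098-52263297, plus strand): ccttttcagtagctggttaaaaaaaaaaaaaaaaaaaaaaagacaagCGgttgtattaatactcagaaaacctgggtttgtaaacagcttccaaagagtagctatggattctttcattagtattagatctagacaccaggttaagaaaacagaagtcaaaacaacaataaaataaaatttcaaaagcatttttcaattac
The Hoxa13 stretch, which adjoins the outermost Hoxa13 start and lies 77 bp from that of Hoxa13-001, held 33 CpG or 16.5 per 100 bp, and the Hoxa10 stretch, which adjoins the start of Hoxa10-001, held 19. The Hoxa9 stretch, which adjoins the start of Hoxa9-001, held 3 CpG, the Evx1 stretch at 194 bp from its start held 1, and the Hoxa11 stretch at 594 bp, set back because exons of Hoxa11as lie between, held 0. For all 22367 genes, the 200 bp directly upstream of the outermost annotated start had a median of 3.5 per 100 bp and a 95th percentile of 13.5. The Hoxa13 stretch lay above that percentile. The Hoxa9 and Hoxa10 stretches adjoin starts inside their gene bodies, and the Hoxa11 and Evx1 stretches do not adjoin a start. These were not set against the windows of all genes. The 500 bp bin that holds the start of Hoxa11-001 had 6.6 CpG per 100 bp and that with the start of Evx1-001 had 2.4. None of the 5 stretches held GCGCGC, which reads the same on both strands. In the 200 bp directly upstream of all genes it stood in 12.2%, a comparison that bears on the Hoxa13 stretch and not on the others.

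Suz12 sites covered most of the posterior Hoxa genes and Evx1 in ESCs. Of the 5 genes, 5 had a Suz12 site, against 28.8% of all genes. The share of the window (gene body plus 5 kb on either side) inside Suz12 sites was 95.55% at Hoxa9, 88.3% at Hoxa10, 78.77% at Evx1, 78.68% at Hoxa11 and 64.35% at Hoxa13. Hoxa9, a gene also known for its part in blood progenitors, was the most covered by window, with flanks that run into its Hox neighbours. Over gene bodies alone the order was Evx1 (99.55%), Hoxa11 (97.57%), Hoxa9 (94.37%), Hoxa10 (82.4%) and Hoxa13 (66.75%). Hoxa13, which patterns the digits and the urogenital tract, was the least covered of the 5 by window and by gene body. Over the 6442 genes with a Suz12 site the median share of the window was 3.173%. Ranked by the window share among all 22367 genes, Hoxa9 stood in place 4, behind Hoxb8 (96.27%), Hoxb6 (95.81%) and Hoxb7 (95.65%). Hoxa10 stood in place 8, Evx1 in place 27, Hoxa11 in place 28 and Hoxa13 in place 81. Evx1 and Hoxa11 were nearly equal, and with no replicates the order of neighbours cannot be set against a spread.

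**Figure D1:**
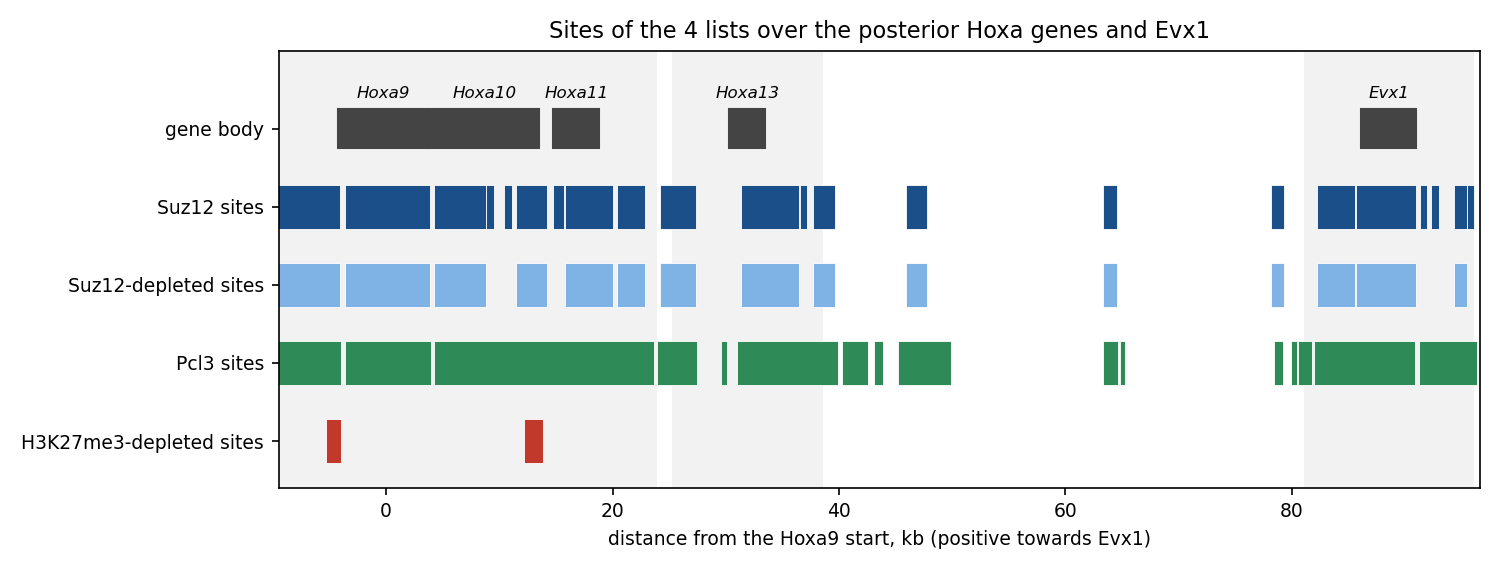
Sites of the 4 lists (colored bars, to scale) along the region from the Hoxa9 window to the Evx1 window, with distance from the start of Hoxa9-001 in kb on the horizontal axis, gene bodies in dark gray and the windows of the 5 genes shaded. The 19 Suz12 and 9 Pcl3 sites fill most of the shaded windows, 12 of the Suz12 sites are repeated in the depleted row, and both H3K27me3-depleted sites lie to the left, around Hoxa9 and Hoxa10.

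The map of the sites shows how the signal was divided among the genes. Hoxa9 (ENSMUSG00000038227.7, chr6:52173099-52181088, minus strand) had 3 Suz12 sites, all with p-values so small that the list writes them as 0. The widest, chr6:52164901-52173300, spans 8400 bp from Hoxa7 into the 3′ end of Hoxa9 and was number 42 in width of all 8876 sites. The next, chr6:52173751-52181250, spans 7500 bp, holds 813 bp of coding sequence and covers the starts of the 4 annotated Hoxa9 transcripts. It also holds Mir196b, a microRNA gene within the Hoxa9 gene body whose product is known to target Hox mRNAs, shown here with its seed in capitals (RefSeq, mm9, chr6:52180128-52180149, minus strand).
mmu-miR-196b-5p: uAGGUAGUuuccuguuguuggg

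Hoxa10 (ENSMUSG00000000938.9, chr6:52181196-52190853, minus strand), a gene required in the uterus and the lumbar skeleton, had 7 Suz12 sites, 2 of which it shares with the Hoxa9 window and 4 with the Hoxa11 window. The site over the start of Hoxa10-001, chr6:52181601-52186150, is 4550 bp wide with p written as 0 and holds 1248 bp of coding sequence. A separate site of 2750 bp, chr6:52188851-52191600 (p-value 1.227e-169), lies over the distal starts of Hoxa10-003 and Hoxa10-004. Between them were 2 short sites in the long Hoxa10 intron, with p-values of 1.030e-11 and 1.664e-12.

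Hoxa11 (ENSMUSG00000038210.9, chr6:52192107-52196213, minus strand), which shapes the forearm and the uterus, had 5 Suz12 sites. The main site, chr6:52193201-52197450, is 4250 bp wide with p written as 0 and covers both Hoxa11 starts together with a start of Hoxa11as, the antisense transcript. It is followed by chr6:52197801-52200250 (p-value 6.591e-239). The 3′ UTR of Hoxa11 had a site of its own, chr6:52192101-52193100, of which 994 bp of 1000 bp lie in UTR, with a p-value of 8.532e-21.

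Hoxa13 (ENSMUSG00000038203.11, chr6:52207693-52210874, minus strand) had 4 Suz12 sites, of which only chr6:52208751-52213800 (5050 bp, p written as 0) reaches the gene body, where it holds the starts of all 6 Hoxa13 transcripts and 1140 bp of coding sequence. Evx1 (ENSMUSG00000005503.8, chr6:52263492-52268372, plus strand), which marks the primitive streak and spinal interneurons, had 6. Its starts lie in chr6:52263001-52268350 (5350 bp, p written as 0), which covers 99.55% of the gene body, and the site upstream, chr6:52259601-52262950, had a p-value of 7.838e-121. The other 4 Evx1 sites lie downstream of the gene and are 1150 bp wide or less. The 20 annotated transcripts of the 5 genes start at 16 positions, and all 16 were inside Suz12, Suz12-depleted and Pcl3 sites. Of 69963 start positions of all protein-coding genes, 14.8% were inside a Suz12 site, 11.2% inside a Suz12-depleted and 6.19% inside a Pcl3 site.

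Suz12 sites were sparse between Hoxa13 and Evx1 and absent from the genes on either side of the cluster. The interval between the Hoxa13 and Evx1 windows, 42617 bp long, was 12.73% covered. The nearest Suz12 site wholly beyond the 5 kb of Hoxa13 was chr6:52223251-52225100 (p-value 1.558e-125), and the last before the Evx1 window was chr6:52255551-52256700 (p-value 2.462e-48). The flanking genes Skap2 and Hibadh had no site of any list, and the first Suz12 site past the Evx1 window was 749029 bp from the end of the gene. Of 5 highly expressed genes used as loci outside Polycomb control, Gapdh, Eef1a1, Rps6 and Rpl4 had no site of any list, while Actb had 1 Suz12 site, also depleted, over 5.13% of its window. Of 7 genes for PRC2 and Polycomb-like proteins, Eed, Ezh2, Jarid2, Suz12, Mtf2 and Phf1 had none, and Phf19, which encodes Pcl3, had 1 Suz12 site, also depleted, over 6.44% of its window and 1 Pcl3 site over 2.97%.

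**Figure D2:**
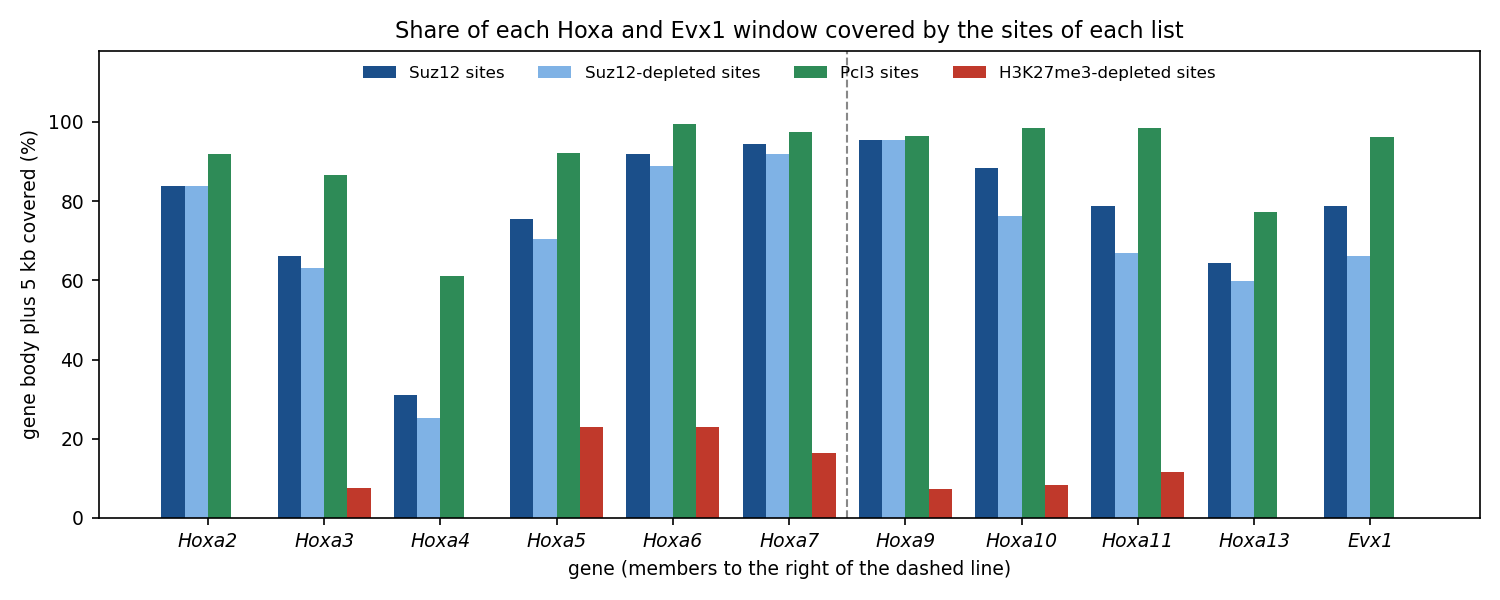
Percentage of each gene window (gene body plus 5 kb on either side) covered by the sites of each list, for 6 anterior Hoxa genes and, right of the dashed line, the 5 genes examined. Bars are single values from 1 list each. Suz12 covers 64.35% to 95.55% of the 5 windows, and H3K27me3-depleted sites cover 0% to 11.7%.

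Pcl3 sites covered nearly all the Suz12 bases at the 5 genes and a larger share of each window. All 5 genes had a Pcl3 site, against 14.7% of all genes, and the covered share of the window was 98.49% at Hoxa11, 98.47% at Hoxa10, 96.39% at Hoxa9, 96.3% at Evx1 and 77.24% at Hoxa13. Over the 3298 genes with a Pcl3 site the median was 2.454%. All 19 Suz12 sites at the 5 genes shared a base with a Pcl3 site, against 44.3% of all Suz12 sites. By the study's own rule, centers within 2 kb of each other, the share was 47.37%, against 44.94% of all Suz12 sites, and within 500 bp it was 10.53%, against 35.62%. The broad Pcl3 sites here hold several Suz12 sites but have a single center, so the result rests on counting shared bases. Counted in bases over the joined windows (61178 bp in 3 blocks), 99.8% of the Suz12 bases were also in a Pcl3 site, against 48.82% over all Suz12 sites. The reverse share was 86.6%, since Pcl3 filled 92.79% of the windows and Suz12 80.51%.

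The gaps that divide the Suz12 signal into separate sites were mostly filled by Pcl3, but 4313 bp of the joined windows lay in neither list. The gap at Hoxa13 between chr6:52201551-52204700 and chr6:52208751-52213800 was largely outside Pcl3 sites. A Pcl3 site of 19400 bp, chr6:52181601-52201000, runs from Hoxa10 across Hoxa11 without a break, was number 5 in width of 5242 Pcl3 sites and holds 7 Suz12 sites that make up 84.3% of its bases. Downstream of Evx1, chr6:52268601-52273700 (p-value 1.568e-166) holds 4 Suz12 sites and is 61.8% Suz12. Of the 9 Pcl3 sites, 6 had p written as 0, against 3.968% of all Pcl3 sites. Of the 9, 2 shared no base with Suz12, near the background of 23.1% of all Pcl3 sites. These were chr6:52206951-52207500 downstream of Hoxa13 (p-value 3.550e-08) and chr6:52257901-52259150 upstream of Evx1 (p-value 5.734e-22). Pcl3 and Suz12 came from different cell lines with input libraries of their own, so the extra width of Pcl3 is a difference between lists and not a measured difference in occupancy.

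Suz12 loss upon Pcl3 knockdown was called at all 5 genes but not at all of their sites. Each gene had a Suz12-depleted site, against 20.7% of all genes and 71.7% of the genes with a Suz12 site, and 12 of the 19 Suz12 sites, or 63.16%, were in the depleted list, against 64.5% of all Suz12 sites. The share of sites was therefore near the background, and nothing is read from it. In bases, 90.21% of the Suz12 signal over the windows was in the depleted list, against 83.41% over all Suz12 sites. Hoxa9 had 3 depleted sites of 3, Hoxa10 had 4 of 7, Hoxa11 had 3 of 5, Hoxa13 had 3 of 4 and Evx1 had 3 of 6, with sites shared between neighbouring windows counted for each gene. Hoxa9 alone had no Suz12 site outside the depleted list. This class depends on how windows were joined, since 6 of the 7 sites outside the list lay within 500 bp of a depleted site, the closest at 50 bp. With gaps of at most 500 bp merged, all 6 merged Suz12 sites held a depleted site. The same share over all Suz12 sites merged in this way was not computed, so nothing is read from this count. The study also reports lower Suz12 mRNA and protein upon Pcl3 knockdown. It proposes that this may account for part of the reduced Suz12 binding, which was not tested here.

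The depleted and the remaining sites of these genes did not overlap in size, whereas those of the whole list did. The 12 depleted sites were 1150 to 8400 bp wide (median 3800 bp), and their binding p-values ran from 2.891e-38 to values written as 0. The 7 sites outside the depleted list were 600 to 1000 bp wide (median 650 bp), with p-values from 2.328e-10 to 8.532e-21. Of all Suz12 sites, the depleted ones were 400 to 16950 bp wide (median 1500 bp) and the others 400 to 3400 bp (median 650 bp). In -log10 of the binding p-value, the depleted ones began at 6.824 and the others reached 99.58. All 435 sites with p written as 0 were depleted, among them the 7 of the genes examined. Among the 2398 Suz12 sites of the whole list whose p-values fell in the range of the 7 sites, 35.6% were in the depleted list, and among the 389 of these that share a base with Pcl3, 37.8% were. The depleted list repeats the p-values of the binding list, so the size of the loss at each site is not known. A site outside the list may have lost Suz12 without passing the cutoff. The study states that its less significant additional Suz12 sites may be weak binding or an artifact of raised Suz12 levels. Whether the 7 sites outside the list belong to these was not tested. Width and binding p-value moved with the call at these genes, and their part in it was not tested.

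**Figure D3:**
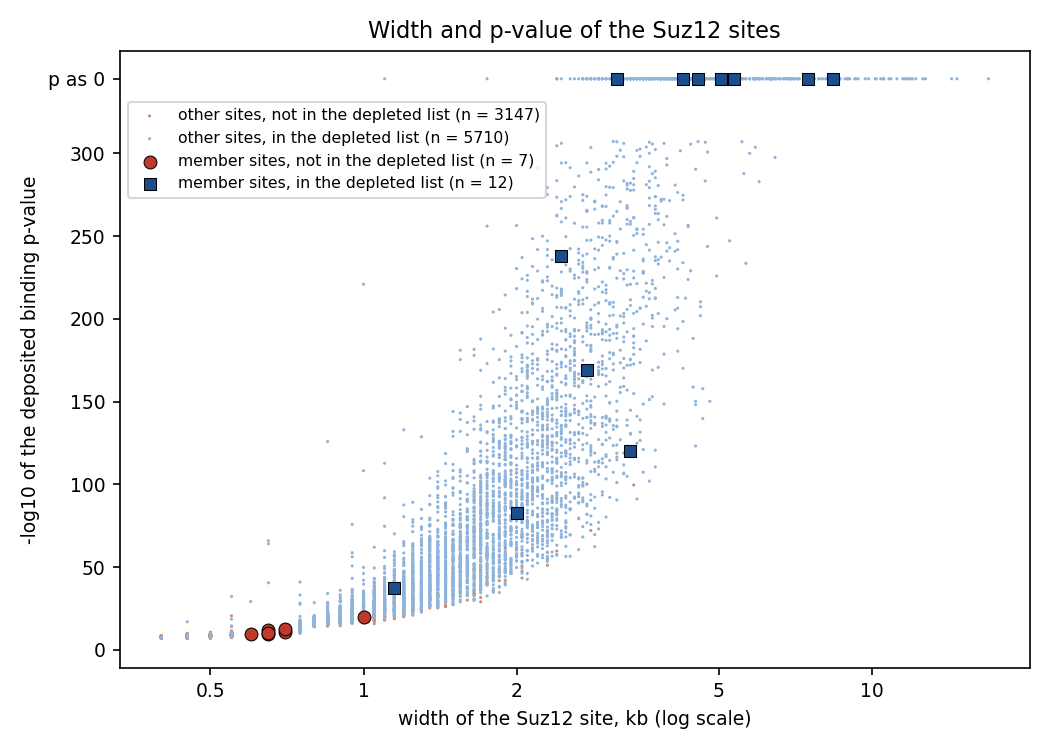
Width (log scale, kb) against the -log10 of the deposited binding p-value for the 8876 Suz12 sites, with p-values written as 0 drawn on the top line. The 12 depleted sites of the 5 genes (squares) are all wider and have smaller p-values than the 7 sites outside the depleted list (circles, 600 to 1000 bp).

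None of the 7 remaining sites covered a transcript start of any gene, against 41.3% of all Suz12 sites outside the depleted list. All 7 lay in Pcl3 sites, which filled 92.79% of the windows, while 14.5% of all such sites shared a base with Pcl3. The strongest was the Hoxa11 3′ UTR site with a p-value of 8.532e-21, and 311 of the 3154 Suz12 sites outside the depleted list, or 9.86%, had smaller p-values. In the long Hoxa10 intron lay chr6:52186201-52186900 and chr6:52187801-52188450. Upstream of Hoxa13 lay chr6:52213951-52214550 (p-value 2.077e-10), in an intron of Gm15053. The other 3 lay downstream of Evx1, namely chr6:52268651-52269350 (p-value 2.566e-13), chr6:52269701-52270350 (p-value 2.328e-10) and chr6:52272851-52273500 (p-value 1.358e-10), outside any annotated gene.

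H3K27me3 loss was narrower and reached 3 of the 5 genes. Hoxa9, Hoxa10 and Hoxa11 had an H3K27me3-depleted site in their windows, against 3.13% of all genes and 10.5% of the genes with a Suz12 site, and Hoxa13 and Evx1 had none. These 3 calls come from 2 sites, because Hoxa10 and Hoxa11 share one. The number of genes called fell to 2 without flanks, to 2 at p-values of at most 1e-10 and to 0 at 1e-12. The shared site, chr6:52189551-52191200 (p-value 3.468e-11), was number 175 of 678 by p-value, lies wholly within the Suz12-depleted site over the distal Hoxa10 starts and covers the starts of Hoxa10-003 and Hoxa10-004. It is 907 bp away from the Hoxa11 gene body. The other site, chr6:52172051-52173350 (p-value 7.587e-08), was number 602 of 678, close to the authors' cutoff of 1e-07, and overlaps 252 bp of UTR at the 3′ end of Hoxa9. Both also shared bases with Suz12-depleted and Pcl3 sites. Of the 19 Suz12 sites, 2 or 10.53% shared a base with an H3K27me3-depleted site, against 6.89% of all Suz12 sites.

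The main starts of Hoxa9, Hoxa10 and Hoxa11 were not inside an H3K27me3-depleted site. The distance to the nearest such site was 4019 bp for Hoxa9-001, 4613 bp for Hoxa10-001 and 5013 bp for Hoxa11-001. For Hoxa13 the nearest site was 16493 bp from the gene body and for Evx1 72292 bp, in both cases the site at Hoxa10. The list holds losses that passed the cutoff and no H3K27me3 level, so a gene outside it may have kept the mark, lost less of it or carried little of it. The study names Mir196b among the targets where ChIP with quantitative PCR gave lower Suz12 and H3K27me3 upon Pcl3 knockdown. Mir196b lies in the Hoxa9 gene body, and its window held no H3K27me3-depleted site. Absence from the list around the Hoxa9 starts therefore does not show that the mark was kept there.

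To show the sequence under a depleted and a remaining site of the same gene, the most CpG-rich 200 bp free of exons are printed from the H3K27me3-depleted site over the distal Hoxa10 starts and from a Hoxa10 intron site outside the Suz12-depleted list (mm9, 5′ to 3′, CpG in capitals).
Suz12 and H3K27me3 depleted (chr6:52189667-52189866, plus strand): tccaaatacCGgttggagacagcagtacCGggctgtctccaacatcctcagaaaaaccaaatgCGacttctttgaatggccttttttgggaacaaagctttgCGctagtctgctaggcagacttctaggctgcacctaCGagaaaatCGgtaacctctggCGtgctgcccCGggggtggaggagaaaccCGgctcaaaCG
Suz12 not depleted (chr6:52186201-52186400, plus strand): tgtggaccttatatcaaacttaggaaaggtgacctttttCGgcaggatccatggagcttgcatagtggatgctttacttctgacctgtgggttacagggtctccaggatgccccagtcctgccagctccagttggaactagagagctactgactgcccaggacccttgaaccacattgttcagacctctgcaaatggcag
The depleted stretch held 10 CpG, as did that of the H3K27me3-depleted site at Hoxa9. The printed stretch of the remaining site held 1, the lowest of the 6 remaining sites with such a stretch. The others held 6 in the second Hoxa10 intron site, 2 upstream of Hoxa13 and 8, 10 and 10 downstream of Evx1, so the stretches of both kinds of site overlapped. Over whole sites the CpG content of the 12 depleted Suz12 sites was 2.119 to 5.307 per 100 bp (median 3.758) and that of the 7 others 0.2857 to 3.385 (median 1.385). The ranges overlapped between 2.119 and 3.385. Of all Suz12 sites, the depleted ones had a median of 5.455 and the others 5.273, and 4.125 was the 25th percentile of all Suz12 sites. All 7 of the remaining sites and 7 of the 12 depleted sites lay below it. CpG content, width and p-value moved together over the 19 sites, and their separate parts in the call were not tested.

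The Suz12 sites of the 5 genes had a lower CpG density than most Suz12 sites. The median over the 19 Suz12 sites was 3.2 per 100 bp, against 5.412 over all Suz12 sites, and in pooled bases 3.667 against 5.661. The sites were also wider than most, with a median of 2450 bp against 1100 bp. Within 500 bp around the site centers, whose position depends on how windows were joined, the median was 3.5 for the 12 depleted sites and 1.2 for the 7 others, against 7.6 and 5.8 over all Suz12 sites. GCGCGC, counted without overlap, stood in 5 of the 19 sites against 52.53% of all Suz12 sites, although the 19 were wider, and its frequency was 0.1821 per kb against 0.8289 per kb. Of the 5 sites with the motif, that over the Hoxa13 starts had the most copies, 4. In 500 bp bins along the joined windows, the 77 bins wholly inside Suz12 sites had a median of 3.6 CpG per 100 bp, the 6 bins inside Pcl3 sites with no Suz12 base 0.9 and the 4 bins in neither list 0.3. The highest bin, at 15.4, lay at Hoxa13.

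**Figure D4:**
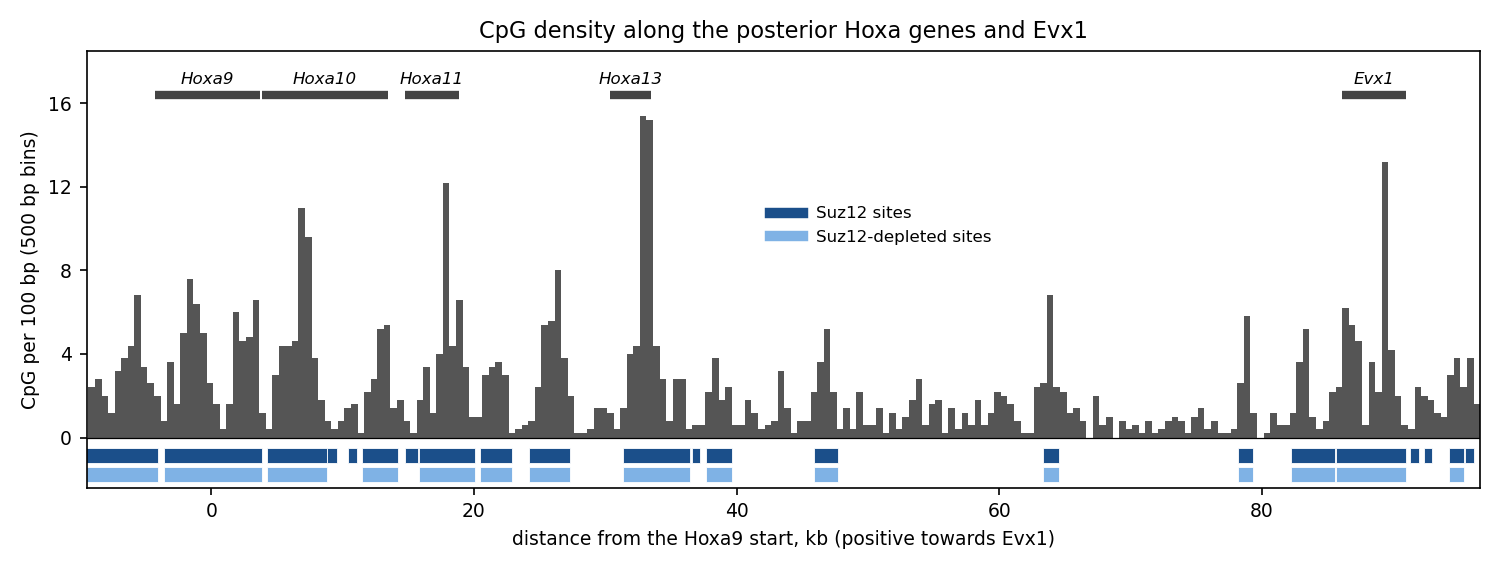
CpG per 100 bp in 500 bp bins (gray bars) against the distance in kb from the start of Hoxa9-001, with gene bodies above and the Suz12 and Suz12-depleted sites below the axis. CpG content peaks at 15.4 per 100 bp at Hoxa13, and Suz12 sites extend beyond the peaks over bins with low CpG content.

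Among the Hox genes, cover by Suz12 and Pcl3 was general and H3K27me3 loss was not. All 40 genes compared (Hox genes with Evx1 and Evx2) had a Suz12, a Suz12-depleted and a Pcl3 site, so these calls do not set the posterior Hoxa genes apart. An H3K27me3-depleted site was found at 19 of 40, at 4 of 6 anterior Hoxa genes and at 3 of 13 other posterior genes (groups 9 to 13 of Hoxb, Hoxc and Hoxd, with Evx2). Scored by the presence or absence of a site in each of the 4 lists, Hoxa9, Hoxa10 and Hoxa11 had the same pattern as 16 of the 35 other genes, and Hoxa13 and Evx1 the same pattern as the other 19.

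Paralogs, the genes of the same number in other clusters, differed in the H3K27me3 loss. In group 9, H3K27me3-depleted sites covered 7.23% of the Hoxa9 window, 45.64% of the Hoxb9 window and none of Hoxc9 or Hoxd9. In group 10 they covered 8.39% at Hoxa10, 7.29% at Hoxc10 and none of Hoxd10, and in group 11 they covered 11.7% at Hoxa11 and none of Hoxc11 or Hoxd11. In group 13, Hoxb13 alone had such a site, over 24.75% of its window, and Hoxa13, Hoxc13 and Hoxd13 had none. Evx1 and Evx2 were alike in having none. The Hoxb genes, with 8 of 10, lie on chromosome 11, where 17.7% of the Suz12 sites shared a base with an H3K27me3-depleted site, against 5.644% on the other chromosomes and 3.563% on chromosome 6, which holds Hoxa. The part of the chromosome in the difference between Hoxa and Hoxb was not tested.

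**Figure D5:**
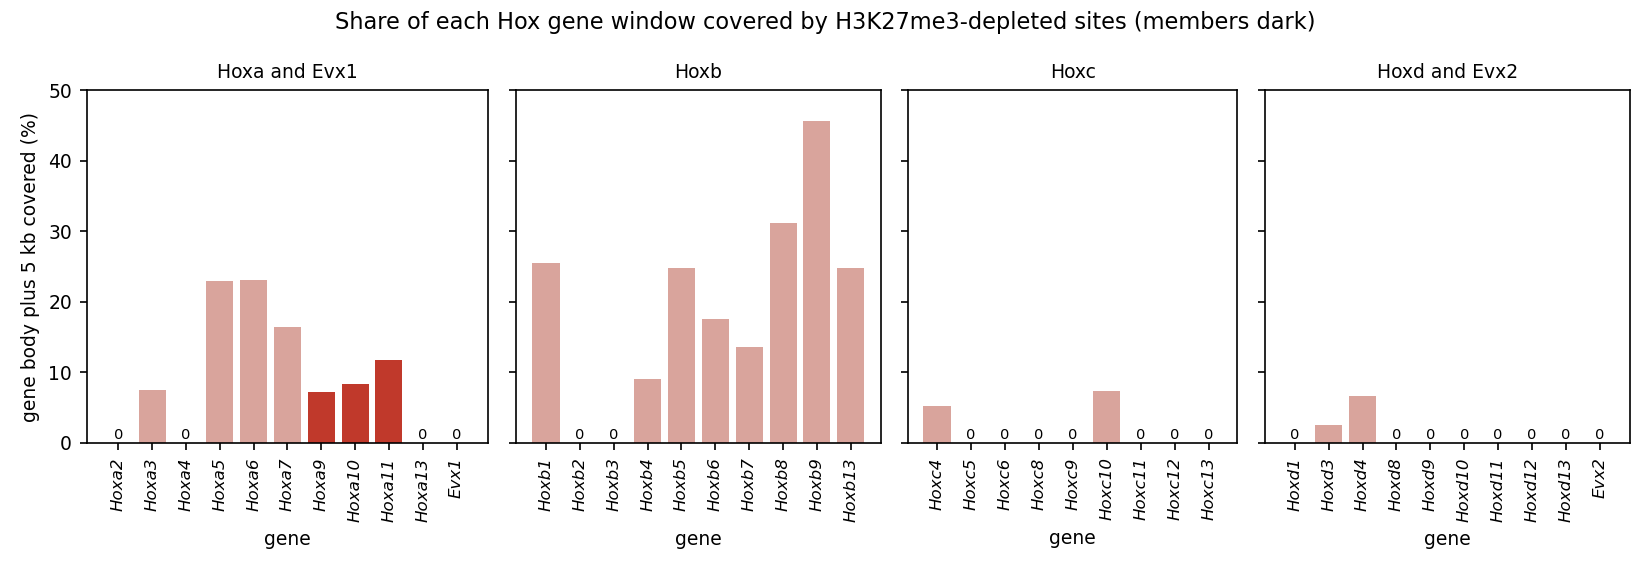
Percentage of 40 Hox, Evx1 and Evx2 windows covered by H3K27me3-depleted sites, by cluster, with the 5 genes examined in dark red and 0 written where a gene has no site. Hoxa9, Hoxa10 and Hoxa11 reach 7.23%, 8.39% and 11.7%, below Hoxa5 to Hoxa7, and Hoxb9 is highest at 45.64%.

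Suz12 covered part of every paralog window. In group 9 it was 95.55% at Hoxa9, 82.3% at Hoxb9, 83.12% at Hoxc9 and 74.46% at Hoxd9. In group 10 it was 88.3% at Hoxa10, 75.16% at Hoxc10 and 83.92% at Hoxd10. In group 11 Hoxd11 was the most covered, with 82.02% against 78.68% at Hoxa11 and 76.34% at Hoxc11. In group 13 it was 64.35% at Hoxa13, 59.48% at Hoxb13, 37.52% at Hoxc13 and 63.13% at Hoxd13, each the lowest of the Hox genes of groups 9 to 13 in its cluster. Evx1 was covered over 78.77% of its window and Evx2 over 51.87%. Within Hoxa, the 6 anterior genes compared ranged from 31.04% at Hoxa4 to 94.53% at Hoxa7. This order depends on the flanks, since the Hoxa4 gene body alone was 97.6% covered and that of Hoxa7 97.96%. Neighbouring windows share sites, so these values are not independent.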

How the data were processed

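Site lists from 10 ChIP-seq libraries of mouse ESCs were analysed. Per the study's methods, single-end reads of 30 nucleotides were aligned to mm9 by bowtie and only unique alignments were kept. Paired libraries were brought to a common background, and windows of 400 bp were tested with the Skellam distribution (cutoff 1e-07). Overlapping windows were joined and their p-values computed again. The authors deposited these p-values as the only measurement, 1 per site, and wrote the smallest as 0. Unique alignment leaves out repeated sequence, joining windows makes the number of sites depend on small gaps, and equalizing assumes a like background in both libraries. How the 2 Pcl3-TAP libraries were combined is not given in the sources used here. All 5722 Suz12-depleted sites have the position and p-value of a Suz12 site.

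From the lists, sites that shared at least 1 bp with each gene body plus 5 kb (GENCODE vM1) were counted, together with the share of bases covered, CpG per 100 bp, GCGCGC and annotation. Coordinates are 1-based in mm9. Backgrounds are the same calls over 22367 protein-coding genes or all sites. No test was run. All sites of the 5 genes are named or counted, with other Hox genes (1 gene is not reported here), flanking genes, PRC2 genes and 5 active genes set beside them. The genes and lists were chosen with earlier results of these data known. Alternatives were other flanks (none, 2 kb, 10 kb), site centers, p-values of at most 1e-10 or 1e-12, protein-coding transcripts, merged sites, overlap by center distance and CpG over 500 bp. The first listed transcript as gene body and the depleted share of merged sites were added after seeing the data. The overlap code was tested on simulated sites. The tools were pandas 2.3.3, numpy 2.4.6, scipy 1.17.1 and matplotlib 3.10.9 under Python 3.11.15. The miR-196b sequence is from RefSeq on mm9.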

Additional observations from a re-analysis of the deposited data

How the results depend on the processing

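No paired analysis was possible because the lists hold no columns per replicate and no result comes from a test. Of 83 recomputed values, 67 stayed within 1.5 times the reported count or within the 95% Wilson interval of the reported share, and 16 did not or had no such limit. The intervals count neighbouring sites, or single bases for covered shares, as if independent. They are wide for sites and narrow for bases, so the tally is a labelling rule and not a measure of robustness. All 5 genes kept a Suz12, a Suz12-depleted and a Pcl3 site under each of the alternatives. Without flanks the sites fell to 10 Suz12, 7 Suz12-depleted and 5 Pcl3 sites. With gaps of at most 500 bp merged there were 6 Suz12 and 4 Pcl3 sites, since joining lowers the number. The share of Suz12 sites in the depleted list then rose from 63.16% to 100% (chosen after seeing the data). The share over all Suz12 sites merged in this way was not computed, so nothing is read from the rise. At p-values of at most 1e-10 the H3K27me3-depleted sites numbered 1, and at 1e-12 there were 0, with 0 genes called. Without flanks 2 genes had an H3K27me3-depleted site, Hoxa9 and Hoxa10, and at 1e-10 again 2, Hoxa10 and Hoxa11. With centers within 2 kb the share of Suz12 sites with Pcl3 fell from 100% to 47.37% (44.94% of all Suz12 sites) and within 500 bp to 10.53% (35.62% of all), since each broad Pcl3 site has 1 center. Over gene bodies alone the covered share was 88.83% for Suz12, 80.97% for Suz12-depleted, 95.04% for Pcl3 and 5.215% for H3K27me3-depleted sites. CpG in 500 bp around the centers had a median of 2.4 per 100 bp. The 8 values with the first listed transcript moved by less than these limits. Depth is unknown, and the lists have no replicates and no value for a site below the cutoff.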

Other observations

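Pcl3 sites covered more of the ground between Hoxa13 and Evx1 than Suz12 sites did, which is a difference between lists. In the 42617 bp between the windows of both genes, Pcl3 sites covered 30.07% and Suz12 sites 12.73%, and no H3K27me3-depleted site was found. The widest Pcl3 site wholly in this interval, chr6:52222551-52227300 (4750 bp, p-value 1.408e-217), was 38.9% Suz12. The next to Hoxa13, chr6:52217651-52219900 (2250 bp, p-value 4.300e-77), shared no base with a Suz12 site and held 0.889 CpG per 100 bp. Of all 5242 Pcl3 sites, 76.86% shared a base with Suz12. All 4 Suz12 sites that reach into the interval, among them chr6:52240701-52241950 (p-value 8.105e-59), were in the depleted list and shared bases with Pcl3 sites. Of all Suz12 sites, 64.5% were in the depleted list and 44.3% shared a base with a Pcl3 site. Among the anterior Hoxa genes, Hoxa5, Hoxa6, Hoxa7 and Hoxa3, whose annotated span reaches over Hoxa4 to Hoxa6, had H3K27me3-depleted sites. These values describe 1 list each and were not tested.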
